A study of Mus musculus with 29 samples.

Results

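The %DNAm of 10 genes of the leukotriene and prostaglandin pathways was examined in the lungs of adult mice that had been exposed to particulate matter (PM2.5) only through their mothers. The genes were Alox5ap, Alox5, Alox15, Ltc4s and Cysltr2 on the leukotriene side, and Ptgs1, Ptgs2, Hpgds, Ptgdr and Ptgdr2 on the prostaglandin side. Members were the windows of a whole-genome methylation table that carried the name of 1 of these genes, which gave 47 of the 260686 windows in the table. Alox5 had 10 windows, Alox5ap 8, Hpgds 5, Ptgs1 5, Alox15 4, Cysltr2 4, Ptgdr2 4, Ltc4s 3, Ptgdr 3 and Ptgs2 1. A window was a stretch holding 50 CpG dinucleotides (51 in window 4 of Cysltr2), and the 47 member windows were 503 to 8959 bp long. The value of a window was its mean percentage of methylated cytosines in CpG context, and a difference between groups is given in percentage points.

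The libraries came from the right lower lung lobe (labelled RML) of Balb/c offspring aged 13 weeks, which the study describes as female, and there were 29 of them in 4 groups. The library labelled Sham replicate 1 went against that sex: it had a value in 1224 of 1230 windows of the Y chromosome, against 29 to 46 in the other libraries. Over 535 short windows of the X chromosome its median was 0.708%, against 25 to 33.1%. Dams received intranasal PM2.5 (PM groups) or saline (Sham groups) before mating, through gestation and until weaning, and no pup was dosed directly. Offspring of the Sham-OVA (n = 7) and PM-OVA (n = 8) groups were sensitised with injected ovalbumin (OVA) in alum and then challenged with aerosolised OVA to produce allergic airway disease (AAD). Offspring of the Sham (n = 7) and PM (n = 7) groups received the vehicle, which the labels call PBS and the methods of the study saline. All animals had a methacholine lung function test before the tissue was taken. The labels do not tie libraries to dams or litters, so littermates may be among the replicates, and every p-value measures the spread between these libraries only. A piece of lobe with all its cell types was sequenced, so a different share of a cell type and a different methylation within that cell type cannot be told apart.

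Leukotrienes and prostaglandins are lipid mediators made from arachidonic acid that is released from membranes. The 5-lipoxygenase product leukotriene A4 is turned into leukotriene C4, whose peptide derivatives constrict airway smooth muscle and make vessels leak. The cyclooxygenases make prostaglandin H2, which mast cells and type 2 lymphocytes turn into prostaglandin D2, a mediator that attracts eosinophils. In mammals methylated CpGs are common across gene bodies, while CpG-dense stretches, frequently at gene starts, tend to be free of methylation.

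Windows were called differentially methylated regions (DMRs) where limma gave an adjusted p under 0.05 and group means differed by at least 10 points. Under that rule OVA gave 2 DMRs among the 47 member windows in Sham offspring and 2 in PM offspring. They were the same windows in both, and all had higher %DNAm after OVA. With the adjusted p limit of 1e-06 that the methods of the study use (with edgeR on counts), and the same 10 points, the members gave 0 DMRs in either kind of offspring by limma. Of all 259167 tested windows 0.479% were called higher and 0.296% lower in Sham offspring, and 0.263% higher and 0.321% lower in PM offspring. The larger lay in the coding sequence of Ptgdr2, the DP2 receptor (CRTH2) through which prostaglandin D2 attracts eosinophils and type 2 lymphocytes. The other lay near the 3′ end of Alox5ap, the membrane protein FLAP that hands arachidonic acid to 5-lipoxygenase. The CpG-richest 300 bases of each DMR outside UTRs are printed to show how densely the measured sites lie, on the strand of the gene in GRCm38, with each CpG in capitals. The Ptgdr2 stretch, chr19:10940926-10941225 (plus strand), is coding throughout and holds 28 CpGs. The Alox5ap stretch, chr5:149287396-149287695 (plus strand), holds 19 CpGs and 124 coding bases.
Ptgdr2: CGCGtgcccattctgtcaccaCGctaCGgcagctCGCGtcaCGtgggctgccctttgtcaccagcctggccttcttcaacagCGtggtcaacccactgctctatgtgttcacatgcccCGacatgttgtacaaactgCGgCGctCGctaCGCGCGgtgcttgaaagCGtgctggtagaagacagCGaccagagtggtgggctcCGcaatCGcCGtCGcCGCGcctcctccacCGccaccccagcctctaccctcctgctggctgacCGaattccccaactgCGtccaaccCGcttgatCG
Alox5ap: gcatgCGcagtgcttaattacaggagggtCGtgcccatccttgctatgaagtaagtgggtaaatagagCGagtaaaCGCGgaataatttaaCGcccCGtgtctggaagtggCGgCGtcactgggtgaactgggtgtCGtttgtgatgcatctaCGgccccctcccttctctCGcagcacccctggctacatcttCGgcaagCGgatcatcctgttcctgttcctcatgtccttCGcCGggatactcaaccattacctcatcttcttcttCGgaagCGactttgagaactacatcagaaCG

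Of the 10 genes, 8 had an upstream sequence in the RefSeq table (GRCm38.p6), the exceptions being Alox5ap and Alox15. The bases before 3 of the starts are printed as examples, again with CpGs in capitals: Ptgs2 with the most CpGs of the 8, Alox5, and Hpgds, whose start window had the largest loss among the start windows. The 250 bases before Ptgs2 (chr1:150099781-150100030, plus strand) hold 13 CpGs and those before Alox5 (chr6:116461179-116461428, minus strand) 5 CpGs. The table's median over 32851 promoters is 6. For Hpgds only the 72 bases outside the annotated gene are given (chr6:65144909-65144980, minus strand), with 1 CpG, while its full 250 bases hold 3 CpGs. The other 5 genes had 2 to 5 CpGs in 250 bases (Cysltr2 2, Ptgdr 2, Ltc4s 3, Ptgdr2 4 and Ptgs1 5). The motif GGGCGG, sought on both strands of the 250 bases, occurs in Ptgs2, Alox5 and Ptgdr2, which are 3 of the 8, and in 32.7% of all promoters of the table. Of the genes with the motif, Ptgdr2 had a start-window call by adjusted p in PM offspring, and Alox5 and Ptgs2 had none. Of those without it, Hpgds, Ltc4s and Cysltr2 had calls in both kinds of offspring, Ptgs1 in PM offspring and Ptgdr in neither. A link between motif and call was not tested.
Ptgs2: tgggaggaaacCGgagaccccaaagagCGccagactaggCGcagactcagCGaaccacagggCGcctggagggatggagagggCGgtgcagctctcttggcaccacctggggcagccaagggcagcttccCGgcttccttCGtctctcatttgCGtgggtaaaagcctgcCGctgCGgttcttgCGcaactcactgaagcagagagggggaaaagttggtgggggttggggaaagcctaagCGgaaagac
Alox5: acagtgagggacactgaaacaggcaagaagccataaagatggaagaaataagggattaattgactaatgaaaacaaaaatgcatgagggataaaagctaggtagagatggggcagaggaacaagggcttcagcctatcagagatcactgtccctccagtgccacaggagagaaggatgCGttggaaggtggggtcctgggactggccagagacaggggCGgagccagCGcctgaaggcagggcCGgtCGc
Hpgds: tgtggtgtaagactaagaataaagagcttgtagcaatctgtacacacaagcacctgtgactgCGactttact

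In Ptgdr2 the DMR was the third of 4 windows from the 5′ end (chr19:10940639-10941318), 680 bp of exon of which 628 bp are coding. The Sham libraries ran from 16.5% to 25% with a median of 20.8%, and the Sham-OVA libraries from 25.6% to 41.4% with a median of 36.7%. The PM libraries ran from 14.6% to 25.5% (median 22.9%) and the PM-OVA libraries from 24.5% to 46.8% (median 35.3%). In Sham offspring the groups did not overlap, and in PM offspring 1 PM-OVA library, replicate 7, lay among the upper PM libraries. The mean went from 20.9 ± 3.11 (SD) in Sham to 35.5 ± 5.25 in Sham-OVA, which is 14.6 points higher (log2 ratio of methylated to unmethylated 1.03 ± 0.18 SE, limma adjusted p = 5.34e-05). From 21.3 ± 4.31 in PM it went to 34.5 ± 6.62 in PM-OVA, which is 13.2 points higher (log2 ratio 0.94 ± 0.17, adjusted p = 8.02e-05). By absolute size these differences were numbers 410 and 487 of the 259167 windows tested, within the top 0.158% and 0.188%.

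The other Ptgdr2 windows moved little. Window 1, which holds the start and mostly upstream sequence (chr19:10930295-10937222), was at 65.7 ± 1.58 in Sham and 64.4 ± 1.24 in Sham-OVA. It fell by 2.90 points in PM offspring, from 66.6 ± 2.15 to 63.7 ± 1.81 (adjusted p = 0.0118), a call lost with each library centred on its own median (adjusted p = 0.182, the highest of its alternatives). Window 2, with the 5′ part of the coding sequence, rose by 4.06 points in Sham offspring, from 46.1 ± 1.30 to 50.2 ± 3.85 (adjusted p = 0.0118), and was at 46.4 ± 0.630 in PM and 47.5 ± 2.25 in PM-OVA (adjusted p = 0.501). Window 4, behind the coding sequence, stayed between 83.1 and 84.8 in the group means. On both sides of the DMR the neighbouring windows thus differed by at most 4.06 points.

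**Figure D1:**
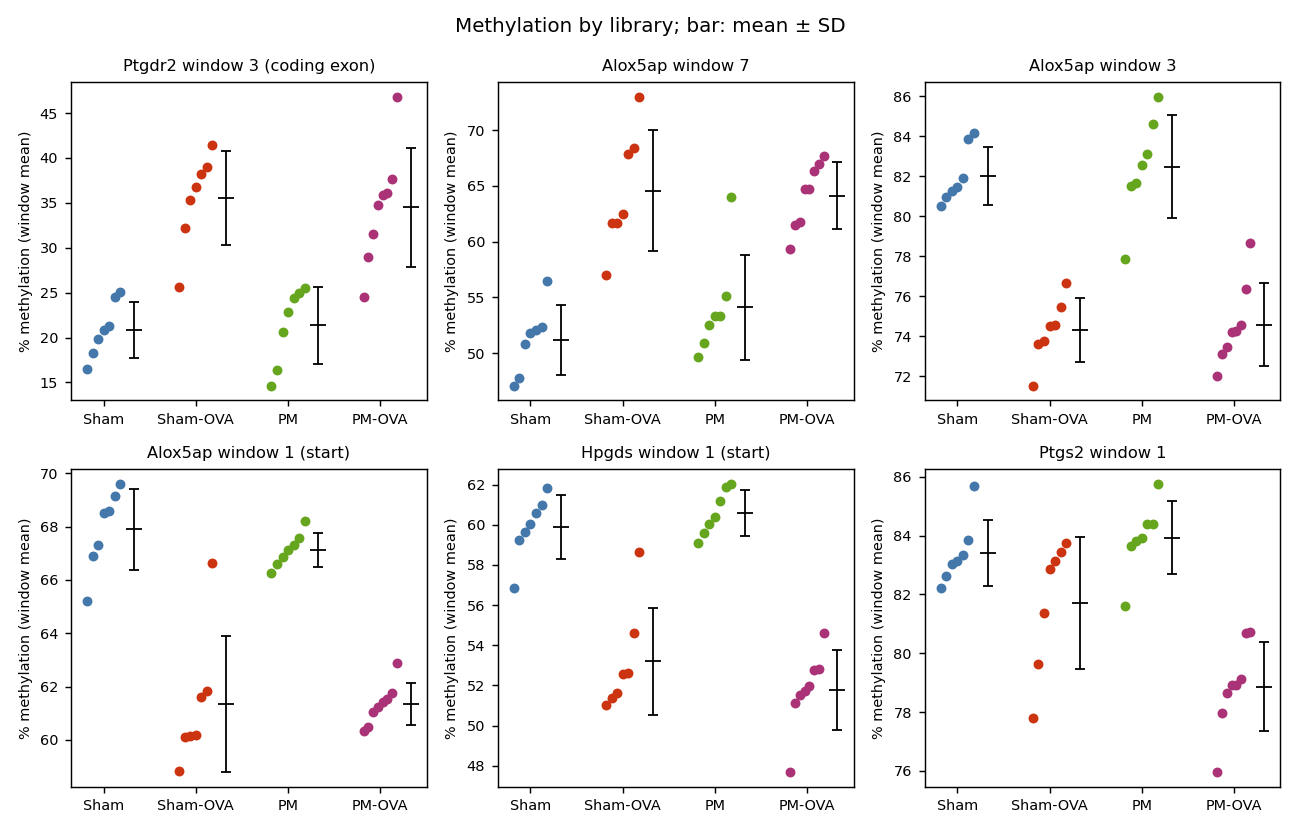
% methylation of 6 member windows in each library, by group, with the group mean ± SD as a bar beside the points (vertical axes differ and do not start at 0). The upper left panel shows Ptgdr2 window 3, with Sham at 16.5 to 25% and Sham-OVA at 25.6 to 41.4%, and the lower right panel shows Ptgs2 window 1, where the PM-OVA libraries (75.9 to 80.7%) lay below every PM library.

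Ptgdr encodes DP1, the other receptor of prostaglandin D2, which raises cyclic AMP in the cells that carry it. None of its 3 windows passed the test in either kind of offspring as deposited. Its start window (chr14:44859266-44865862) was at 52.8 ± 1.65 in Sham, 54.8 ± 2.38 in Sham-OVA, 54.1 ± 1.74 in PM and 55.5 ± 1.22 in PM-OVA. The differences of 1.94 and 1.39 points had adjusted p of 0.126 and 0.245, and after centring they passed (2.34 and 2.37 points, adjusted p = 0.0242 and 0.00709). Window 2 lies over the first part of the coding sequence (843 coding bp, 38.3 CpG per kb) and had a mean of 12 ± 0.640 in Sham and 13.1 ± 1.22 in Sham-OVA. The difference of this window after OVA was 1.10 points (Sham) and 0.691 points (PM). Window 3, at the 3′ end, differed by 1.64 points in both and passed after centring in PM offspring (adjusted p = 0.0197).

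Alox5ap held the most mixed pattern of the 10 genes. The 4 windows from the start through the middle of the gene fell after OVA, and windows 5 and 7 rose, in both kinds of offspring. With each library centred all 4 were still lower, but the call was lost for window 2 in both kinds of offspring and for window 4 in PM offspring. The start window (chr5:149262184-149267065) fell from 67.9 ± 1.52 in Sham to 61.3 ± 2.55 in Sham-OVA, a difference of -6.56 points (adjusted p = 1.81e-06), and from 67.1 ± 0.647 in PM to 61.3 ± 0.792 in PM-OVA, a difference of -5.79 points (adjusted p = 4.49e-06). Every PM-OVA library (60.3 to 62.9%) lay below every PM library (66.2 to 68.2%). Among Sham-OVA libraries 1, replicate 7, stood at 66.7% inside the Sham range of 65.2 to 69.6%, with the next at 61.8%.

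Window 3 of Alox5ap (chr5:149271063-149274984, with 100 bp of coding exon) showed the largest loss among members in Sham offspring. The Sham libraries lay between 80.5 and 84.2% (median 81.5%) and the Sham-OVA libraries between 71.5 and 76.7% (median 74.5%), with no overlap. The mean fell by 7.71 points in Sham offspring (adjusted p = 3.13e-06) and fell by 7.89 points in PM offspring (adjusted p = 6.91e-07), where 1 PM-OVA library at 78.7% reached into the PM range of 77.9 to 86%. Windows 2 and 4 on either side differed by -4.05 and -3.98 points in Sham offspring (adjusted p = 0.0232 and 0.000451) and by -3.38 and -2.83 points in PM offspring (adjusted p = 0.0457 and 0.00554). After centring window 2 differed by -3.66 points in Sham (adjusted p = 0.0518) and by -2.4 points in PM offspring (adjusted p = 0.287). Window 4 then differed by -3.59 points in Sham (adjusted p = 0.00196) and by -1.85 points in PM offspring (adjusted p = 0.129).

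Further along, window 5 (chr5:149278687-149280894, 22.6 CpG per kb) rose from 68.6 ± 2.70 in Sham to 78.3 ± 2.71 in Sham-OVA and from 69.4 ± 3.14 in PM to 78.4 ± 3.53 in PM-OVA. These rises of 9.72 and 9.08 points passed the test (adjusted p = 4.85e-05 and 4.19e-05) but stood just outside the 10-point limit. Neither pair of groups overlapped in this window. Window 6 did not pass, at 82.4 ± 1.41 in Sham and 82.7 ± 1.72 in Sham-OVA (adjusted p = 0.825). The DMR, window 7 (chr5:149285882-149287704, 164 exonic bp, shared with the gene model Gm19719), ran from 47.1 to 56.4% in Sham (median 51.8%) and from 57 to 73% in Sham-OVA (median 62.5%). In PM it ran from 49.7 to 64% (median 53.3%) and in PM-OVA from 59.3 to 67.7% (median 64.7%).

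The PM library at 64%, replicate 1, was the only one of its group to overlap PM-OVA in Alox5ap window 7, and the next PM library stood at 55.2%. The mean rose by 13.4 points in Sham offspring (51.2 ± 3.13 to 64.6 ± 5.40, log2 ratio 0.79 ± 0.13 SE, adjusted p = 2.01e-05). In PM offspring it rose by 10.01 points (54.1 ± 4.71 to 64.1 ± 2.98, log2 ratio 0.59 ± 0.12, adjusted p = 0.000327), just inside the limit. It stood at 9.27 to 9.92 points, with an adjusted p still under 0.05, when any single library out of PM replicates 3, 4, 5, 6 and 7 and PM-OVA replicates 1, 2, 4, 7 and 8 was left out, which ended the DMR call in PM offspring. Without PM replicate 1 the rise was 11.7 points. Window 8, at the 3′ end, rose by 6.4 points in Sham offspring (adjusted p = 0.000139) and stood at 77.1 ± 1.98 in PM and 79.3 ± 2.17 in PM-OVA (adjusted p = 0.107, and 0.0184 after centring).

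**Figure D2:**
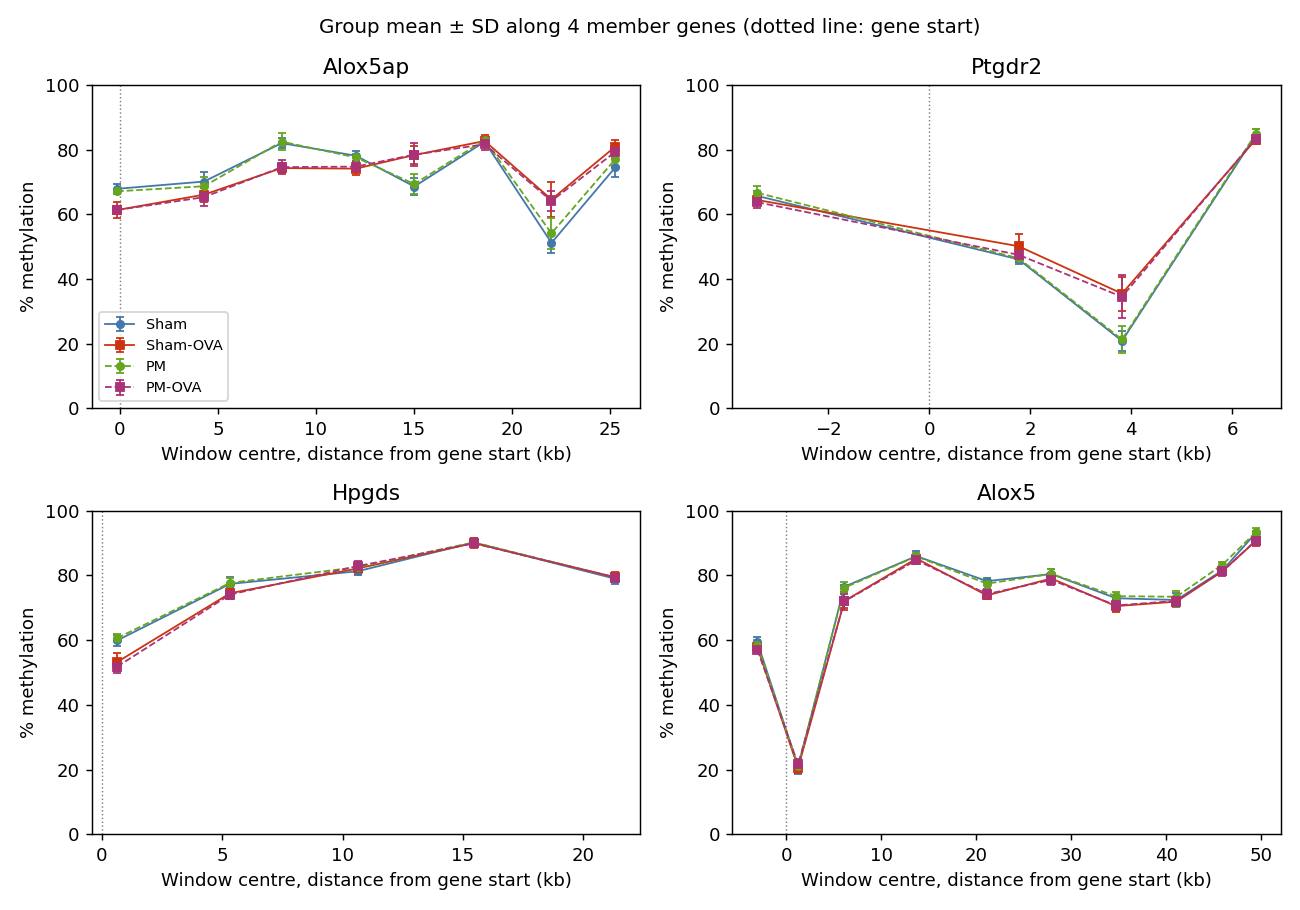
Group mean ± SD of % methylation for each window of Alox5ap, Ptgdr2, Hpgds and Alox5, plotted at the window centre as distance from the annotated gene start in kb. In Alox5ap the OVA groups lie below their controls at window 3 (74.3% against 82% in Sham offspring) and above them at window 7 (64.6% against 51.2%), and in Alox5 the CpG-dense window 2 lies at 20.5 to 21.6% in all 4 groups.

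Alox5 encodes 5-lipoxygenase, the enzyme that starts leukotriene synthesis in myeloid cells. By adjusted p 4 of its 10 windows fell after OVA in Sham offspring and 5 in PM offspring, and none rose, beside 22.3% and 34.8% of all windows falling. With each library centred on its own median 3 calls were left in each, beside 17.8% and 18.7% of all windows falling. Window 7 then differed by -2.04 and -1.89 points (adjusted p = 0.0533 and 0.103), where it had differed by -2.44 and -2.87 points, and window 9 by -1.06 points in PM offspring (adjusted p = 0.189), where it had differed by -2.04 points. The start window (chr6:116461113-116467307, nearly all upstream sequence) was at 59.4 ± 1.59 in Sham and 57.8 ± 0.459 in Sham-OVA (adjusted p = 0.106), and at 58.5 ± 1.56 in PM and 57.1 ± 1.16 in PM-OVA (adjusted p = 0.115). Window 2 just inside the gene, with the first coding exon, was the least methylated stretch of the gene, with group means between 20.5 and 21.6% and differences of -0.238 and 0.483 points. The losses lay deeper in the gene. Window 5, wholly intronic (chr6:116436583-116443487), ran from 76.6 to 80.1% in Sham and from 72.3 to 75.5% in Sham-OVA without overlap, and its mean fell by 4.40 points (adjusted p = 0.000109). In PM offspring it fell by 3.24 points, from 77.5 ± 1.83 to 74.2 ± 1.58 (adjusted p = 0.0014). Window 3 differed by -4.43 and -4.22 points and the last window, which holds the 3′ end of the coding sequence, by -2.4 and -2.6 points.

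Ltc4s encodes leukotriene C4 synthase, which joins leukotriene A4 to glutathione. Its start window (chr11:50237536-50242060) ran from 61.3 to 66.8% in Sham (median 66%) and from 55.7 to 61.9% in Sham-OVA (median 60.4%). The mean fell by 4.77 points in Sham offspring (64.9 ± 2.39 to 60.1 ± 2.02, adjusted p = 0.00121) and fell by 3.53 points in PM offspring (63 ± 2.26 to 59.4 ± 1.55, adjusted p = 0.00897). In PM offspring that loss did not pass once each library was centred on its own median (difference -2.55 points, adjusted p = 0.201, the highest of its alternatives, the lowest being 0.00151). The other 2 windows hold 237 and 257 coding bp, where the start window holds 58. They have 99.4 and 42.9 CpG per kb, the first of these being the densest of all members. They were almost free of methylation, at 3.60 ± 1.05 and 10.3 ± 0.868 in Sham, and differed by less than 1 point in either kind of offspring, although after centring the last passed in PM offspring (1.57 points higher, adjusted p = 0.0185).

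Alox15 encodes the 12/15-lipoxygenase of eosinophils and macrophages. Its start window (chr11:70351439-70352978, 32.5 CpG per kb) was at 14.3 ± 1.67 in Sham, 14.3 ± 1.15 in Sham-OVA, 14.9 ± 1.21 in PM and 14.5 ± 1.93 in PM-OVA. Window 3, inside the gene, fell by 3.05 points in Sham offspring (79.8 ± 1.41 to 76.8 ± 2.71, adjusted p = 0.0186) and fell by 3.85 points in PM offspring (80.3 ± 1.83 to 76.4 ± 1.28, adjusted p = 0.00161). The fall in Sham offspring rested on 5 of the 7 Sham-OVA libraries, which lay below the Sham mean, and without Sham-OVA replicate 3 its adjusted p was 0.0501, the highest over its alternatives (lowest 0.0058). Window 4, at the 3′ end, rose by 3.54 points in Sham offspring (adjusted p = 0.0203), and in PM offspring it was at 74.8 ± 2.81 and 75.4 ± 1.26 (adjusted p = 0.76).

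Cysltr2 encodes a receptor for the cysteinyl leukotrienes, found on endothelium and on leucocytes. Its start window (chr14:73046129-73054721) was at 68.1 to 70.2% in Sham and 63.3 to 67.7% in Sham-OVA, and at 67.1 to 72% in PM and 63.3 to 66.7% in PM-OVA. Neither pair of groups overlapped, which among the 47 windows was otherwise seen only for Alox5ap window 5. The mean fell by 2.95 points in Sham offspring (adjusted p = 0.00355) and fell by 4.23 points in PM offspring (adjusted p = 4.46e-05). Window 3 of Cysltr2, mostly intronic and the sparsest member at 5.58 CpG per kb, fell by 2.86 points in PM offspring (80.8 ± 1.79 to 77.9 ± 1.27, adjusted p = 0.00165) against a difference of -0.396 points in Sham offspring (adjusted p = 0.693).

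Ptgs1 encodes cyclooxygenase 1, the form present in most resting tissues. Its start window (chr2:36228410-36231127) was at 15 ± 0.683 in Sham and 14.2 ± 1.14 in Sham-OVA (adjusted p = 0.162, and 0.0246 without Sham-OVA replicate 7). In PM offspring it fell by 1.02 points, from 14.9 ± 0.455 to 13.9 ± 0.588 (adjusted p = 0.0494), a call that was lost in most alternatives, with an adjusted p of up to 0.768 after centring. Window 5, over the last exons, fell by 2.07 points in Sham offspring (87.8 ± 0.615 to 85.8 ± 0.966, adjusted p = 0.00782) and fell by 2.56 points in PM offspring (87.4 ± 1.34 to 84.8 ± 1.40, adjusted p = 0.00105). The 3 windows between them did not pass in either, but window 2 rose in PM offspring after centring (2.04 points, adjusted p = 0.0251).

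Ptgs2 encodes cyclooxygenase 2, the inducible form. Only the body and 3′ end of the gene carried its name (chr1:150102463-150109724, 3803 exonic bp), because the window over the start (chr1:150099037-150102098) is named after the antisense gene Ptgs2os. That start window stood at 21.1 ± 0.447 in Sham, 21.5 ± 1.06 in Sham-OVA, 21 ± 1.03 in PM and 21.5 ± 0.654 in PM-OVA, and did not differ by the test (adjusted p = 0.591 and 0.502). The gene-body window ran from 82.2 to 85.7% in Sham (median 83.1%) and from 77.8 to 83.8% in Sham-OVA (median 82.9%), so the groups overlapped, and the difference of -1.70 points did not pass (adjusted p = 0.108). It ran from 81.6 to 85.8% in PM (median 83.9%) and from 75.9 to 80.7% in PM-OVA (median 78.9%), without overlap, and the mean fell by 5.07 points (adjusted p = 1.38e-05). In PM-OVA all 8 libraries were under the mean of the PM group, and in Sham-OVA 5 of 7 were under the mean of the Sham group.

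Hpgds encodes the haematopoietic prostaglandin D synthase of mast cells and type 2 lymphocytes. Its start window (chr6:65142301-65146259) showed the largest loss among members in PM offspring. The Sham libraries ran from 56.8 to 61.8% (median 60%) and the Sham-OVA libraries from 51 to 58.6% (median 52.6%), the 58.6% again being replicate 7. The PM libraries ran from 59.1 to 62.1% (median 60.4%) and the PM-OVA libraries from 47.7 to 54.6% (median 51.8%), wholly apart. The mean fell by 6.67 points in Sham offspring (59.9 ± 1.59 to 53.2 ± 2.67, adjusted p = 1.78e-05) and fell by 8.82 points in PM offspring (60.6 ± 1.14 to 51.8 ± 1.98, adjusted p = 1.49e-07). Window 2, the next into the gene, differed by -2.9 and -3.61 points (adjusted p = 0.0137 and 0.00171). The 3 windows beyond it did not pass in either kind of offspring, with differences between -0.307 and 0.875 points.

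Counting every member window with an adjusted p under 0.05, whatever its size, 6 of the 47 were higher and 14 lower after OVA in Sham offspring, where 13.3% and 22.3% of all windows were. In PM offspring 3 were higher and 19 lower, where 9.26% and 34.8% of all windows were. By adjusted p the members thus divided much as the whole table did. The median difference over members was -0.506 (Sham offspring) and -1.3 points (PM offspring), beside -0.414 and -1.03 points over all windows.

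Member windows moved in the same sense in both kinds of offspring in 40 of 47 cases, beside 81.8% of all tested windows, and the 2 contrasts share no library. Both adjusted p were under 0.05 with the same sign for 17 windows, 3 higher and 14 lower, beside 7.57% and 19.7% of all tested windows. Groups did not overlap for 6 of the 47 windows in Sham offspring, beside 8.58% of all tested windows, and for 8 in PM offspring, beside 12%. The general drift downwards mattered for the weaker of these calls. Over all windows the median log2 ratio was shifted by -0.042 in Sham and -0.0957 in PM offspring, and with each library centred on its median the split in PM offspring became 8 higher and 12 lower members, with 18.9% and 18.7% of all windows. In Sham offspring it became 7 higher and 12 lower, with 18.3% and 17.8% of all windows. No member called in either contrast changed sign, 18 of 20 calls in Sham offspring kept an adjusted p under 0.05, and 15 of 22 in PM offspring did.

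**Figure D3:**
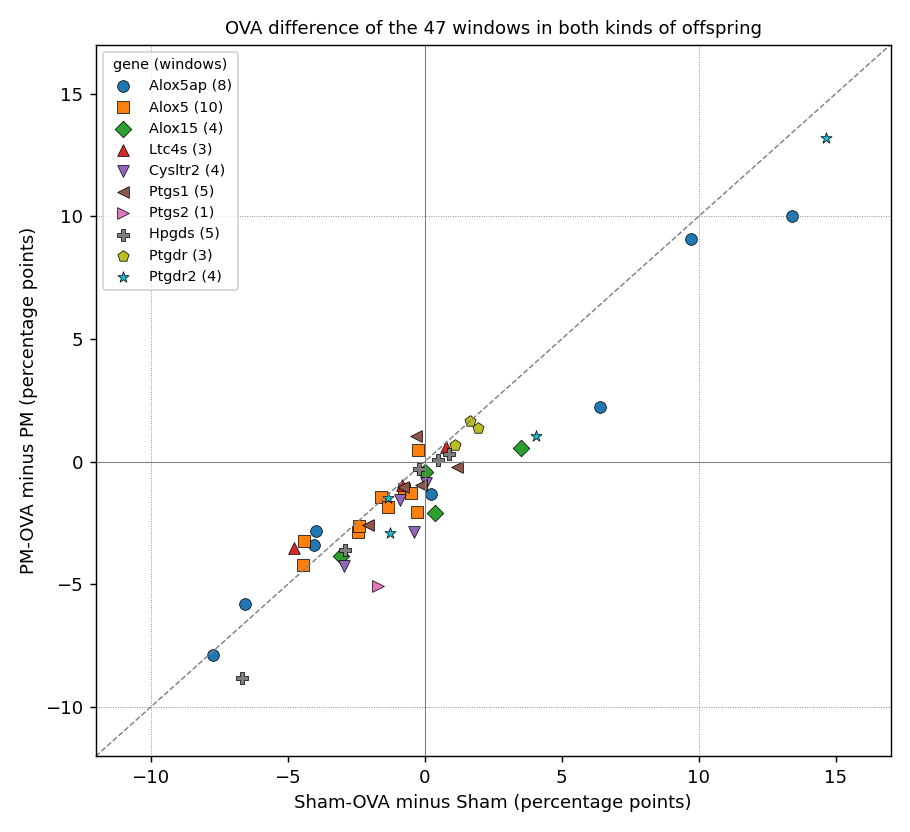
Difference after OVA in Sham offspring (horizontal) against that in PM offspring (vertical), in percentage points, for each of the 47 windows, with 1 symbol per gene and the line of equal differences dashed. Ptgdr2 window 3 lies at the upper right (14.6 and 13.2 points), Hpgds window 1 at the bottom (-6.67 and -8.82 points), and 40 of the 47 windows share their sign.

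Direction and CpG density are set side by side here as a description. Of the 8 member windows with at least 20 CpG per kb, 3 rose, none fell and 5 did not pass, in Sham and in PM offspring alike; the 3 were Ptgdr2 window 3 and Alox5ap windows 5 and 7. The 5 that did not pass were windows of Alox5, Alox15, Ltc4s and Ptgdr, with Sham means from 3.60 to 20.8%. The 3 that rose had Sham means from 20.9 to 68.6%. Alox5 window 2 (20.8 ± 2.18) and Ptgdr2 window 3 (20.9 ± 3.11) had nearly the same Sham mean, so level did not separate the sets. Of the 39 sparser windows 3 rose and 14 fell in Sham offspring, and none rose and 19 fell in PM offspring. With each library centred 4 of the sparser windows rose and 12 fell in either kind of offspring, and of the 8 dense windows 3 rose in Sham and 4 in PM offspring and none fell. In the whole table windows of at most 2500 bp, which are as dense, were higher in 21% and lower in 7.96% of cases in Sham offspring and higher in 17.1% and lower in 11% in PM offspring. Longer windows were higher in 12% and lower in 24.7% of cases in Sham offspring, and higher in 7.94% and lower in 38.8% in PM offspring. After centring the short windows were higher in 25.7% and lower in 6.03% of cases in Sham offspring (28% and 5.39% in PM offspring) and the longer ones higher in 17% and lower in 19.8% (17.4% and 20.9%). The limit of 20 was chosen after the values had been seen.

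**Figure D4:**
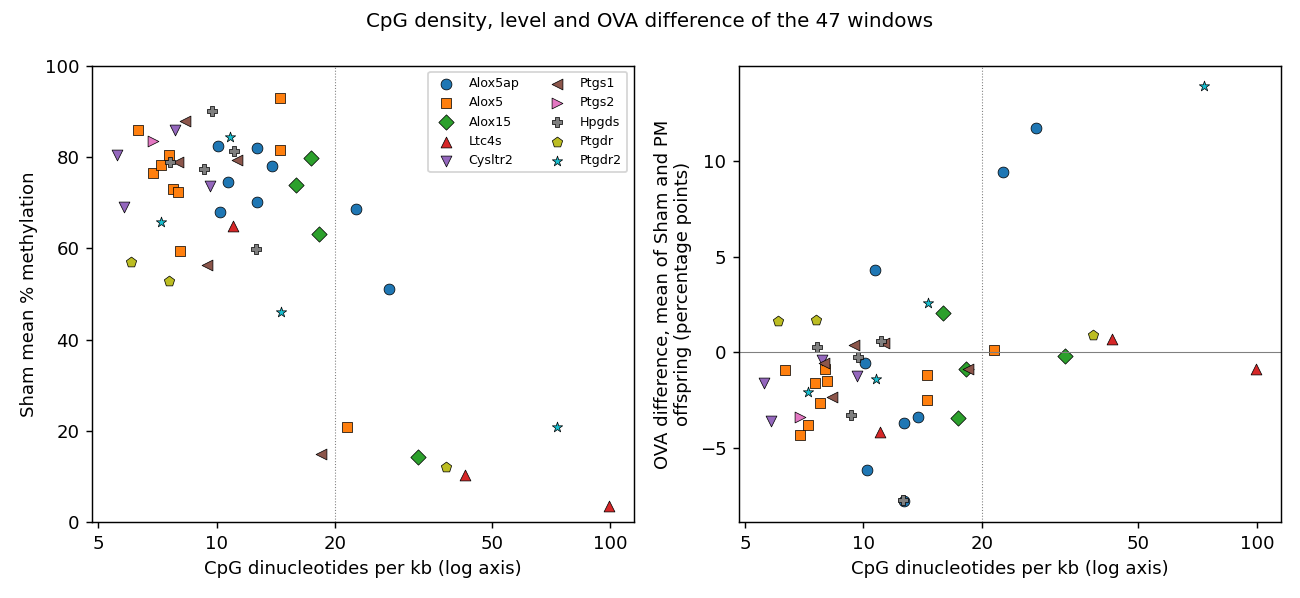
CpG dinucleotides per kb of each member window (log axis) against its mean % methylation in Sham (left) and against the mean of its 2 OVA differences in percentage points (right), with the dotted line at 20 per kb. Right of that line no window fell by an adjusted p under 0.05, and the 3 risers are Ptgdr2 window 3 and Alox5ap windows 5 and 7.

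Of the 10 gene starts 9 lay in a window of their own gene. After OVA 4 of these 9 start windows fell in Sham offspring (Alox5ap, Ltc4s, Cysltr2 and Hpgds) and 6 in PM offspring, with Ptgs1 and Ptgdr2 added, and none rose, beside the 22.3% and 34.8% of all windows that fell. With each library centred 4 fell and 1 rose in Sham offspring, beside 17.8% and 18.3% of all windows. In PM offspring 3 then fell and 1 rose, beside 18.7% and 18.9% of all windows. The calls of Ltc4s, Ptgs1 and Ptgdr2 in PM offspring were lost (-2.55, -0.0369 and -1.92 points), and the riser was Ptgdr in both. Before centring the differences of the 9 start windows ranged from -6.67 to 1.94 points in Sham and from -8.82 to 1.39 points in PM offspring.

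The comparison of PM with Sham offspring, which asks whether maternal exposure alone left a mark on these genes, gave no DMR. No window of the table had an adjusted p under 0.05 without OVA, with OVA or for the interaction (0% of all windows in each). Without OVA 1 of the 47 member windows had an unadjusted limma p under 0.05, beside 5.79% of all windows. It was Alox5 window 9, at 81.6 ± 1.31 in Sham and 83.3 ± 0.938 in PM (1.73 points higher, unadjusted p = 0.0137, adjusted p = 0.829). With OVA 3 windows did, beside 5.96% of all, the smallest p being that of Ptgs2 window 1, at 81.7 ± 2.24 in Sham-OVA and 78.9 ± 1.53 in PM-OVA (a difference of -2.85 points, unadjusted p = 0.00176, adjusted p = 0.805).

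The interaction asks whether OVA acted differently in PM and in Sham offspring, and 3 member windows had an unadjusted p under 0.05, beside 7.40% of all windows. They were Ptgs2 window 1 (-3.37 points, counted as the change in PM less the change in Sham offspring, unadjusted p = 0.00716, adjusted p = 0.576), Alox5ap window 8 (-4.16 points, adjusted p = 0.626) and Cysltr2 window 3 (-2.47 points, adjusted p = 0.632). The fall of Ptgs2 window 1 passed in PM offspring and not in Sham offspring, but by this test of the difference itself the 2 effects were not shown to differ. For the Ptgdr2 DMR this value was -1.45 points (adjusted p = 0.949) and for the Alox5ap DMR -3.39 points (adjusted p = 0.808).

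**Figure D5:**
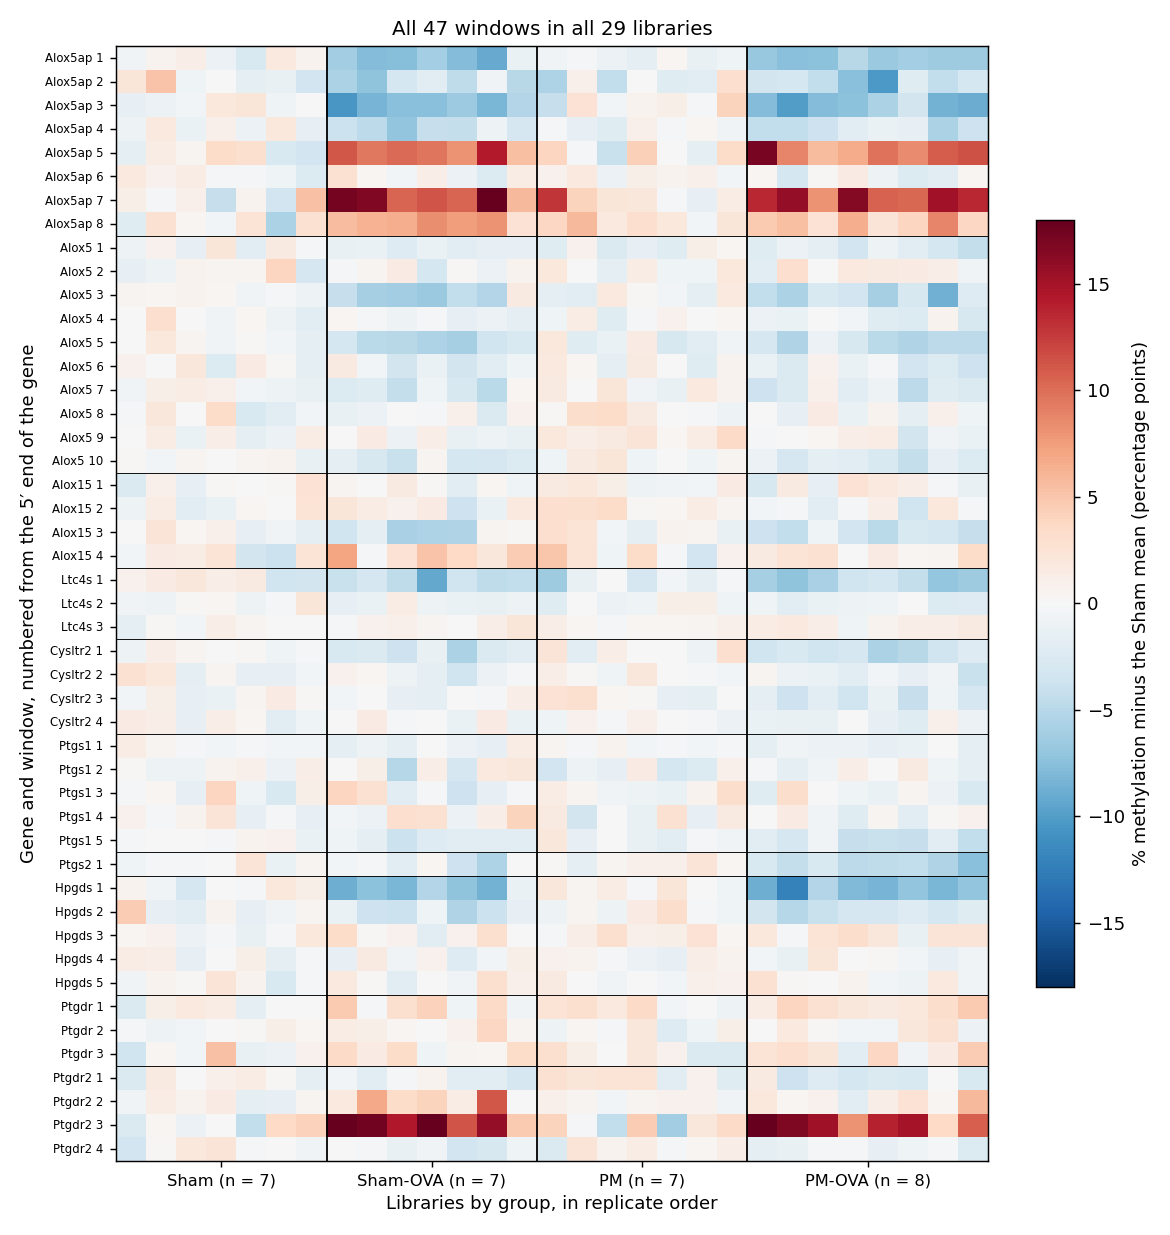
% methylation minus the Sham mean, in percentage points, for all 47 member windows (rows, by gene and from the 5′ end) in all 29 libraries (columns, by group and replicate). The rises of Alox5ap windows 5 and 7 and of Ptgdr2 window 3 are the dark red rows in both OVA groups, and the seventh Sham-OVA column is paler than its neighbours, with a mean absolute difference of 1.93 points from the Sham means.

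Libraries varied in how strongly they carried the pattern. Over the 47 windows the mean absolute difference from the Sham means was 3.07 to 3.82 points in 6 of the Sham-OVA libraries and 1.93 points in replicate 7. In PM-OVA it was 2.26 to 3.60 points from the PM means. Without Sham-OVA replicate 7 the rise of Ptgdr2 window 3 was 16.3 points, that of Alox5ap window 7 was 14.7 points, and 3 member windows were DMRs in Sham offspring, Alox5ap window 5 being added. Over all windows 2419 were then DMRs in Sham offspring, against 2008 with all libraries. The replicate SD pooled over groups had a median of 1.59 points over members, from 0.755 in Ptgs1 window 1 to 5.06 in Ptgdr2 window 3, beside 1.49 points over all windows. The table gives no counts or coverage, so how many reads stand behind a window's value is not known.

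Without the library labelled Sham replicate 1, whose sex label its Y and X windows contradict, the counts stayed at 2 DMRs in each kind of offspring, with rises in Sham offspring of 14.2 points for Ptgdr2 window 3 and 13.6 points for Alox5ap window 7. The %DNAm of genes that mark leucocytes moved with OVA as well, but this gene list was chosen with earlier results of these data known. Over 113 windows of 24 leucocyte genes the mean per library was 71.4 to 72.7% in Sham, 68.8 to 70.4% in Sham-OVA, 72.1 to 73.2% in PM and 68.9 to 70.4% in PM-OVA, so that the OVA groups lay wholly below their controls. Of these 113 windows 10 were DMRs in Sham and 7 in PM offspring, all lower, beside the 0.296% and 0.321% of all windows called lower. By adjusted p 16 were higher and 47 lower in Sham offspring, and 12 higher and 57 lower in PM offspring. Library means over all tested windows ran from 68.6 to 69.6% in Sham and from 67.8 to 69.5% in Sham-OVA. They ran from 68.7 to 70.2% in PM and from 67.9 to 69.0% in PM-OVA. Over 221 windows of 22 genes of epithelium, endothelium and mesenchyme the library means ran from 65.0 to 67.1% and the groups overlapped, and single windows were called as well. In Sham offspring 3 of the 221 were higher and 1 lower DMRs, and 61 were higher and 44 lower by adjusted p, beside 13.3% and 22.3% of all windows. In PM offspring 1 was a higher and 1 a lower DMR, and 46 were higher and 70 lower by adjusted p, beside 9.26% and 34.8%. The part of cell composition in the member differences was not tested.

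The tested windows of other genes whose values ran most like those of Ptgdr2 window 3 over the 29 libraries were in Erf (Pearson r = 0.921), Zfhx3 (0.918), Cldn6 (0.917), Ptpn12 (0.916) and Abr (0.91). These windows share their libraries and the OVA shift, and were picked for the highest r in these same libraries. After subtracting the group means r was 0.756, 0.716, 0.756, 0.719 and 0.678. The picking raises these values too, and no background is given for them.

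Other genes of the 2 pathways, from a list of 48 names of which 42 had windows, gave 427 windows. In Sham offspring 3 of these were higher DMRs and 2 lower, beside 0.479% and 0.296% of all windows, and 75 were higher and 98 lower by adjusted p, beside 13.3% and 22.3%. In PM offspring 1 was a higher and 1 a lower DMR, beside 0.263% and 0.321% of all windows, and 44 were higher and 147 lower by adjusted p, beside 9.26% and 34.8%. Ptger4, the EP4 receptor of prostaglandin E2, had the largest difference of the list, at chr15:5238260-5242022, where the mean fell by 15.9 points in Sham offspring (54.7 ± 2.16 to 38.8 ± 2.83, adjusted p = 3.49e-09) and fell by 15.6 points in PM offspring (54.3 ± 3.03 to 38.6 ± 2.10, adjusted p = 1.35e-09). Tbxa2r, the thromboxane receptor, rose at chr10:81332259-81332916 by 12 points (60.4 ± 3.93 to 72.4 ± 3.29, adjusted p = 0.000232) and by 10.9 points (60.7 ± 6.17 to 71.5 ± 4.46, adjusted p = 0.000373).

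Tbxas1, thromboxane synthase, fell at chr6:38919135-38921925 by 12.7 points in Sham offspring (72.9 ± 1.26 to 60.2 ± 2.12, adjusted p = 1.66e-08) and fell by 9.43 points in PM offspring (adjusted p = 4.21e-07). Abcc4, a transporter that exports prostaglandins, rose in 2 windows, by 11 and 10.6 points in Sham offspring and by 9.15 and 7.77 in PM offspring. The loss at Ptger4 was larger in both kinds of offspring than that of any member window.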

How the data were processed

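Genomic DNA of 29 lung samples was enzymatically converted (EM-seq) and sequenced. The authors trimmed reads with Trim Galore, mapped and called methylation with DRAGEN against GRCm38, and averaged calls in SeqMonk over windows of 100 CpG cytosines on both strands. The deposited values are percent methylation per window and library for windows overlapping a gene; no counts or coverage were used, so no interval from depth could be given. Groups and replicates came from the sample labels.

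From these values, log2 ratios of methylated to unmethylated percent (1 point added to each) of the 259167 windows with at least 3 values in every group were fitted with limma 3.58.1 (R 4.3.3) to the 4 groups together, without covariates, 2-sided, with Benjamini-Hochberg adjustment over all windows within each of 5 contrasts. The other 1519 windows, 1197 of them on the Y chromosome, were not tested. No member value was missing or imputed. The steps were tested on simulated data. Windows were named with values where they held a gene start, were called, had the smallest OVA p of their gene, or had the smallest member p of a contrast without calls; further windows named were chosen after their values were seen. The members and gene lists were chosen with earlier results of these data known. Exons, starts and CpGs were read with pysam 0.24.0 from GENCODE and RefSeq files of GRCm38. Alternatives covered the offset, scale, centring, missing values, thresholds, block, variance trend, fitted libraries and left-out libraries.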

Additional observations from a re-analysis of the deposited data

Results flagged for a closer look

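Within the groups of the 17 windows named by rule, 3 libraries of the 68 groups checked lay farther from their nearest neighbour than Dixon's 95% limit allows, where chance alone marks about 1 group in 20. In the start window of Alox5ap, Sham-OVA replicate 7 was highest at 66.7%, with the next library at 61.8%. In window 7 of Alox5ap, the DMR, PM replicate 1 was highest at 64.0%, with the next at 55.2%. In the start window of Ltc4s, Sham-OVA replicate 4 was lowest at 55.7%, with the next at 60.3%.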

How the results depend on the processing

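No member window called by adjusted p changed direction under the alternatives run. The 2 DMRs in Sham and the 2 in PM offspring became 7 and 7 with a minimum difference of 5 points, 0 and 0 with an adjusted p under 1e-06, and 3 and 3 with each library centred. The DMR counts over all windows under these settings are not given here, so no change particular to the members is read from them. In PM offspring the count was 1 with the replicate number as a block and 1 without PM-OVA replicates 7 and 8, whose library names hold "Rel". In both, Alox5ap window 7 was the loss, at 9.92 and 9.54 points. Over all windows the PM count was 1435 and 1338 in these settings, against 1513 in the main fit. Leaving out each library in turn gave 2 to 3 DMRs in Sham and 1 to 2 in PM offspring. The PM contrasts and the interaction kept 0 under all alternatives run, the interaction having no value where only the libraries of a contrast were fitted. Samples with the same replicate number in their titles showed no pairing, with correlations of their deviations from -0.0669 to 0.0879. These numbers differ from those in the library names for some OVA libraries, so a pairing by library name or by litter was not tested. Under the block Ptgdr2 window 3 was 14.6 and 13.6 points higher after OVA. Over its alternatives Ptgdr2 window 3 stayed at 13.6 to 16.3 points (Sham) and 11.4 to 15.3 points (PM). Depth could not be examined, since the table holds percentages alone.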
